A study of Homo sapiens with 12 samples.

Results

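The protein 4.1 family was followed through CD44 knockout in Hs578T and MDA-MB-231, both human triple negative breast cancer cell lines. Its 7 members, EPB41, EPB41L1, EPB41L2, EPB41L3, EPB41L4A, EPB41L4B and EPB41L5, were taken by gene symbol from the 58381 genes counted. The family was chosen by the values of 1 member and 1 comparison, the fall of EPB41L3 in MDA-MB-231 CD44 KO, so for every member the comparison of CD44 KO with CD44 WT in MDA-MB-231 is given below as a description without a test. The 12 RNA-seq libraries form 4 groups of 3, CD44 WT and CD44 KO of each line. All cells carried a lentiviral Cas9 induced by doxycycline, were kept under puromycin and were starved in low serum before RNA extraction. CD44 KO cells had received guide RNAs against exons 1 and 5 of CD44 and were gated as CD29+ CD44-, whereas CD44 WT cells had received transfection reagent only and were gated as CD29+ CD44+. The sorted cells are populations, not clones. For 1 MDA-MB-231 CD44 WT library no replicate number could be taken from its name, and it is called the unnumbered library here. Separate cultures are not stated for the 3 libraries of a group, so p-values measure the spread between these libraries, which may be technical.

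Proteins of the 4.1 family sit under the plasma membrane. They share a FERM domain, a fold that binds the inner tails of membrane proteins and lipids, and the founding members also hold a domain that ties spectrin to actin. Through both contacts they anchor adhesion molecules and channels to the cortical cytoskeleton, and the tail of CD44 itself is known to bind both protein 4.1 and ankyrin. EPB41 encodes the band 4.1 protein of red cells (4.1R), EPB41L1 the neuronal form (4.1N), EPB41L2 the general form (4.1G) and EPB41L3 the brain form (4.1B). The last is also known as DAL-1, a growth suppressor first described by its loss in lung adenocarcinoma. EPB41L4A, EPB41L4B and EPB41L5 have the FERM domain without the spectrin-actin binding domain. EPB41L4B and EPB41L5 (Lulu2 and Lulu1) shape epithelial junctions, and EPB41L5 has a known part in the remodelling of adhesions during epithelial-mesenchymal transition.

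The members lie on 7 chromosomes of GRCh38. EPB41 (ENSG00000159023.20) spans chr1:28887091-29120046 on the plus strand, EPB41L1 (ENSG00000088367.21) chr20:36091504-36232799 on the plus strand, and EPB41L5 (ENSG00000115109.13) chr2:120013005-120179119 on the plus strand. On the minus strand are EPB41L2 (ENSG00000079819.18, chr6:130839347-131063322), EPB41L3 (ENSG00000082397.17, chr18:5392381-5630700), EPB41L4A (ENSG00000129595.12, chr5:112142441-112419316) and EPB41L4B (ENSG00000095203.14, chr9:109171975-109320964). Their exonic lengths ran from 7879 nt (EPB41L4B) to 14805 nt (EPB41), which is why levels of different members are compared per kb of exon only. These lengths join all annotated exons of a gene and not those of the transcripts expressed. Orders and shares per kb depend on that choice.

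The DNA just before the start of EPB41L3 is shown because this gene had the widest range of levels in the family, with the matching stretches of EPB41L2, its most abundant relative, and of EPB41L4A, the other member near 0 in Hs578T. RefSeq windows (GRCh38.p14) were at hand for 6 of the 7 members, 15 windows in all, 4 of them for EPB41L3. EPB41L4B had none. Each line gives the 250 bases before the start site, 5′ to 3′ on the gene's strand, and every window matched the genome sequence. Capitals mark the GC box letters GGGCGG or their reverse complement. The first EPB41L3 window ends at the start of its MANE Select transcript, and the second lies 84994 bases further upstream.
EPB41L3, chr18:5543998-5544247, minus strand: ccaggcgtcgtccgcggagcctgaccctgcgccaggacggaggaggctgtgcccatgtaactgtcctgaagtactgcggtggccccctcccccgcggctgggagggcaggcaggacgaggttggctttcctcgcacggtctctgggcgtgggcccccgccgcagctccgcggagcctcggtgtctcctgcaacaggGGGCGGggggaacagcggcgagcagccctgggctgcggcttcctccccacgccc
EPB41L3, chr18:5628992-5629241, minus strand: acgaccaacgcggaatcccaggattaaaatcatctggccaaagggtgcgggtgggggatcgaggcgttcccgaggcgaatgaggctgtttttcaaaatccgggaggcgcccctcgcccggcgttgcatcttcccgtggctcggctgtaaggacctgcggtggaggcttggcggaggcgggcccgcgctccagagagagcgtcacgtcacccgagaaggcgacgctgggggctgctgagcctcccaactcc
EPB41L2, chr6:131063246-131063495, minus strand: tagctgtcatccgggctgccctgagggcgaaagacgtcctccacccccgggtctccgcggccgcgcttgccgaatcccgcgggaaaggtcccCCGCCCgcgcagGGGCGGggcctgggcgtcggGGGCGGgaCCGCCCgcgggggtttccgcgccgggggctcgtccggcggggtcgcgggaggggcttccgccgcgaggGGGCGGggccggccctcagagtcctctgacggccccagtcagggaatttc
EPB41L4A, chr5:112419278-112419527, minus strand: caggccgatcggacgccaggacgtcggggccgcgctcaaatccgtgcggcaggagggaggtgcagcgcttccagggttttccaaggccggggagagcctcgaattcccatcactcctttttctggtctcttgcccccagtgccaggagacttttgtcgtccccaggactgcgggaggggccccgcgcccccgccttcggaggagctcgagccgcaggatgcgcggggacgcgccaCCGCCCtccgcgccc
All 4 stretches were rich in G and C. The GC content was 73.2% and 65.2% in the EPB41L3 windows, 77.6% in EPB41L2 and 70% in EPB41L4A, against a median of 58.0% over 35116 RefSeq windows of this length. They held 23, 25, 35 and 27 CpG dinucleotides, against a median of 11. The GC box letters stood once before the MANE Select start of EPB41L3, from position -54 counted back from the start site, 5 times in EPB41L2, once in EPB41L4A and not in the upstream EPB41L3 window. They were present on either strand in 42.6% of all windows. Of the other letters searched on both strands, the palindromes TGACGTCA (1.65% of all windows) and CACGTG (6.34%) and the TATAAA box (10.7%), none was in these 4 stretches. The remaining EPB41L3 windows, 3573 and 22618 bases inside the gene from the MANE Select start, had 49.2% and 38.8% GC, and the second of them held CACGTG once. Counts per gene do not tell which of these starts was used.

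CD44 and the lines' own markers were read first. CD44 had 5919 to 7602 counts in Hs578T CD44 WT and 292 to 464 in CD44 KO, and 4036 to 4472 against 304 to 611 in MDA-MB-231, so both labels held. Total counts per library ran from 10257586 to 19725543. Among receptors, PGR had no count in any library, ESR1 stayed at or below 1.15 CPM (counts scaled to a common library size with edgeR's TMM factors, as for all CPM here), and ERBB2 lay between 57.4 and 101 CPM. All 5 mesenchymal markers were counted in every group, with VIM between 3730 and 7262 CPM, but SPARC was at 809 to 1379 CPM in Hs578T and at only 0.324 to 1.78 CPM in MDA-MB-231. The 6 luminal epithelial markers were also counted in every group, their sum at 881 to 1486 CPM, of which the keratin genes KRT8 (270 to 596 CPM) and KRT18 (357 to 745 CPM) made up the most. EPCAM and KRT19 were at or below 0.339 CPM in Hs578T, against 13.7 to 22.2 and 192 to 303 CPM in MDA-MB-231, and CDH1 was at most 0.971 CPM in any library. Of 7 blood cell markers, HBB, HBA1 and HBA2 had no count, and the summed level was at most 1.48 CPM in Hs578T CD44 WT and at most 0.943 CPM in both MDA-MB-231 groups. In Hs578T CD44 KO the sum was 3.51 to 5.21 CPM, of which PTPRC, the leukocyte phosphatase CD45, made up 3.21 to 4.81 CPM. The 3 endothelial markers summed to 11.9 to 14.2 CPM in Hs578T CD44 WT and 14.8 to 15.5 CPM in CD44 KO. The part of either in the Hs578T results was not tested.

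EPB41L3 divided the 4 groups most sharply. In Hs578T it had 1, 0 and 0 counts in the CD44 WT libraries and 1, 1 and 0 in CD44 KO. In MDA-MB-231 CD44 WT it had 857, 1688 and 1608 counts in replicate 1, replicate 3 and the unnumbered library. In MDA-MB-231 CD44 KO it had 39, 61 and 51 counts. The gene was thus near the limit of counting in Hs578T with or without CD44, abundant in MDA-MB-231 CD44 WT, and low but present in all 3 MDA-MB-231 CD44 KO libraries. A total of 0 to 3 counts over a group cannot carry a fold change, so none is given for Hs578T.

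On the CPM scale, EPB41L3 was at 73.4, 137 and 143 in MDA-MB-231 CD44 WT, a mean of 118 ± 38.6 (SD, n = 3). In CD44 KO of this line it was at 3.30, 3.23 and 5.04, a mean of 3.86 ± 1.02 (n = 3), which is 3.27% of the CD44 WT mean. The 2 groups did not overlap, and the lowest CD44 WT library stood far above the highest CD44 KO library. The fitted log2 fold change was -4.97 (standard error 0.258), or 31.3-fold lower in CD44 KO, and it is part of what chose the family. The CD44 WT libraries varied among themselves, and replicate 1 was the lowest of them for 5 of the 7 members, EPB41L3 included. Without that library the log2 fold change was -5.22.

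Between the lines, EPB41L3 had 4153 counts over the MDA-MB-231 CD44 WT libraries and 1 over those of Hs578T. Scaled to library size this is a ratio of 4527 (exact 95% counting interval 812 to 178830). After knockout the ratio of MDA-MB-231 to Hs578T was 74.8 (151 against 2 counts, interval 20.3 to 623). These intervals cover counting error only.

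**Figure D1:**
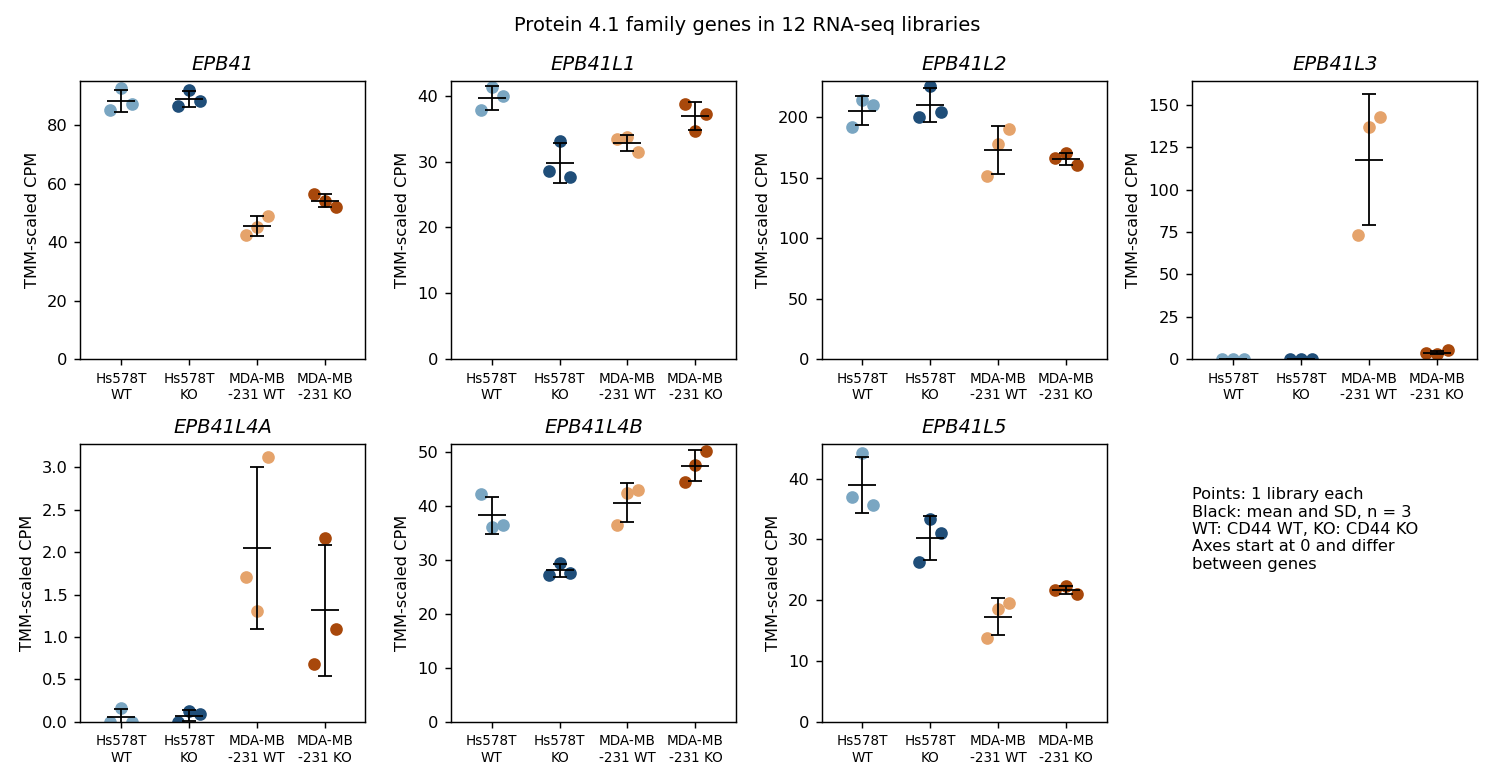
TMM-scaled CPM (vertical axes, from 0, different for each gene) of the 7 protein 4.1 family members in the 4 groups, with 1 point per library and the mean ± SD of 3 libraries in black. EPB41L3 lies between 73.4 and 143 CPM in MDA-MB-231 CD44 WT, between 3.23 and 5.04 CPM in CD44 KO of that line and near 0 in Hs578T. The other abundant members differ by much smaller folds between the groups.

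Per kb of exon, EPB41L2 was the most abundant member in every group, at 19.9 ± 1.09 CPM per kb in Hs578T CD44 WT, 20.4 ± 1.39 in Hs578T CD44 KO, 16.8 ± 1.96 in MDA-MB-231 CD44 WT and 16 ± 0.484 in MDA-MB-231 CD44 KO (mean ± SD, n = 3 each). It stood apart from the next member over the libraries of each group. In both Hs578T groups EPB41 came second, at 5.97 ± 0.257 in CD44 WT and 6.02 ± 0.181 CPM per kb in CD44 KO. EPB41L4B, EPB41L5 and EPB41L1 followed in that order, with means from 4.1 to 4.85 CPM per kb in CD44 WT and from 3.08 to 3.56 in CD44 KO, and neighbours in this order overlapped over the libraries. EPB41L4A and EPB41L3 came last and overlapped, both under 0.01 CPM per kb on average. In MDA-MB-231 CD44 WT the second place belonged to EPB41L3, at 9.66 ± 3.16 CPM per kb, apart from EPB41L4B at 5.15 ± 0.461. EPB41L1 (3.40 ± 0.123) and EPB41 (3.07 ± 0.232) overlapped, and EPB41L5 (1.86 ± 0.332) and EPB41L4A (0.238 ± 0.111) followed apart. In MDA-MB-231 CD44 KO EPB41L3 stood at 0.316 ± 0.0837 CPM per kb, sixth of the 7 and apart from EPB41L5 above it (2.33 ± 0.0712) and EPB41L4A below it (0.153 ± 0.0900). The order of the other 6 members was the same in both MDA-MB-231 groups.

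Summed over the 7 members, the family reached 40.2 ± 6.08 CPM per kb in MDA-MB-231 CD44 WT, of which EPB41L3 made up 23.6% ± 4.75 (range 18.1% to 26.4%, n = 3). In MDA-MB-231 CD44 KO the sum was 32.3 ± 0.329 and the share of EPB41L3 0.979% ± 0.267. Without EPB41L3 the sums were 30.5 ± 2.95 in CD44 WT and 32.0 ± 0.392 in CD44 KO. This difference was smaller than the SD of the CD44 WT libraries. In Hs578T the sum was 39.0 ± 1.48 in CD44 WT and 36.3 ± 2.35 in CD44 KO, with EPB41L3 at no more than 0.0191% of it in any library.

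**Figure D2:**
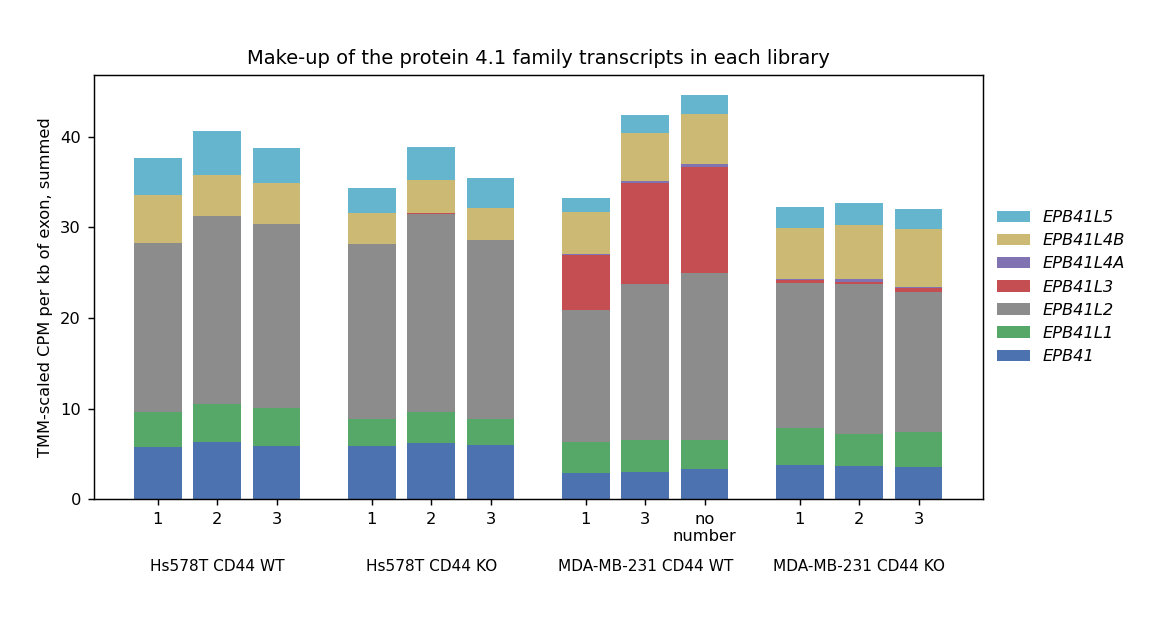
TMM-scaled CPM per kb of exon of the 7 members, stacked, in each of the 12 libraries, labelled by replicate under their group. EPB41L2 is the thickest layer throughout, and EPB41L3 is a visible layer in the MDA-MB-231 CD44 WT libraries, at 18.1% to 26.4% of the sum, and a thin one or none elsewhere.

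In Hs578T CD44 KO, 3 of the 5 members that could be measured there had a lower CPM in every CD44 KO library than in every CD44 WT library, and the other 2 overlapped. Among all 15836 genes tested, 18.6% were lower without overlap in this comparison. Only EPB41L4B passed the test, as 1 of these 5 members, against 7.51% of all genes tested in either direction (edgeR's quasi-likelihood test, Benjamini-Hochberg adjusted p at most 0.01). A share from 1 gene cannot be told from that background. EPB41L3 and EPB41L4A entered the fit through their MDA-MB-231 libraries alone.

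EPB41L4B, which with its relative acts on the actomyosin of epithelial junctions, was at 42.2, 36.1 and 36.4 CPM in Hs578T CD44 WT and at 27.1, 29.4 and 27.6 CPM in CD44 KO. The 3 CD44 KO libraries lay close together below the CD44 WT range. The log2 fold change was -0.45 (standard error 0.103, adjusted p = 0.00837, edgeR), or 0.733-fold. The call sat close to the threshold: it was lost without any one of the 6 Hs578T libraries, and also without replicate 3 of MDA-MB-231 CD44 WT or replicate 2 or 3 of its CD44 KO, the adjusted p reaching 0.0539. Over the fits that left out 1 library the log2 fold change stayed between -0.48 and -0.37.

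EPB41L1, the neuronal form, was at 37.8, 41.4 and 39.9 CPM in Hs578T CD44 WT and at 28.6, 33.2 and 27.6 CPM in CD44 KO. The groups did not overlap, but the test was missed by a small margin (log2 fold change -0.41, standard error 0.0986, adjusted p = 0.0107, edgeR). DESeq2 called it (adjusted p = 0.00317), and over the fits that left out 1 library the adjusted p ran from 0.0055 to 0.0659. EPB41L5 was at 37.0, 44.2 and 35.7 CPM in CD44 WT and at 26.3, 33.4 and 31.0 CPM in CD44 KO. Its libraries did not overlap either, with a log2 fold change of -0.36 (standard error 0.134) that did not pass (adjusted p = 0.0854, edgeR).

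The 2 most abundant members in Hs578T did not differ beyond their spread. EPB41 was at 85.2, 92.6 and 87.3 CPM in CD44 WT and 86.7, 92.0 and 88.4 CPM in CD44 KO. Its log2 fold change was 0.01 (95% interval -0.15 to 0.17, adjusted p = 0.963, edgeR). EPB41L2 was at 192, 214 and 210 CPM in CD44 WT and 200, 226 and 204 CPM in CD44 KO, with a log2 fold change of 0.03 (95% interval -0.15 to 0.22, adjusted p = 0.866, edgeR). EPB41L4A had 0, 2 and 0 counts in CD44 WT and 0, 2 and 1 in CD44 KO, too few for a fold.

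In MDA-MB-231 the other 6 members had small fitted changes, and these are descriptions because the comparison chose the family. EPB41, EPB41L1, EPB41L4B and EPB41L5 were higher in every CD44 KO library than in every CD44 WT library, as were 11.8% of all genes tested. EPB41L3 alone was lower without overlap, as were 13.7% of all genes tested. EPB41 was at 42.3, 45.1 and 49.1 CPM in CD44 WT and at 56.4, 54.0 and 52.0 CPM in CD44 KO (log2 fold change 0.25, standard error 0.0853). EPB41L5 was at 13.8, 18.5 and 19.6 CPM against 21.6, 22.4 and 21 CPM (log2 fold change 0.33, standard error 0.142). The CD44 KO libraries of both genes were close together, and the gap to the nearest CD44 WT library was narrow.

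EPB41L4B was at 36.4, 42.3 and 43.0 CPM in MDA-MB-231 CD44 WT and at 44.4, 47.6 and 50.2 CPM in CD44 KO (log2 fold change 0.22, standard error 0.101). EPB41L1 was at 33.4, 33.7 and 31.5 CPM against 38.8, 34.7 and 37.3 CPM (log2 fold change 0.17, standard error 0.0989). For EPB41L1, EPB41L4B and EPB41L5 the CD44 KO libraries thus lay below CD44 WT in Hs578T and above it in MDA-MB-231. Among all genes tested, 2.30% had this pattern, and the difference between the lines was not tested because it contains the comparison that chose the family. Without MDA-MB-231 CD44 WT replicate 1, the log2 fold change in that line was 0.18 for EPB41L1. For EPB41L4B it was then 0.15 and for EPB41L5 0.19, both smaller than with all libraries. EPB41L2 was at 151, 178 and 190 CPM in CD44 WT and 166, 170 and 160 CPM in CD44 KO, within the CD44 WT range (log2 fold change -0.06, 95% interval -0.25 to 0.12). EPB41L4A was at 1.71, 1.30 and 3.12 CPM in CD44 WT and 0.678, 2.17 and 1.09 CPM in CD44 KO, from 8 to 41 counts a library, and the groups overlapped (log2 fold change -0.54, 95% interval -1.45 to 0.36).

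**Figure D3:**
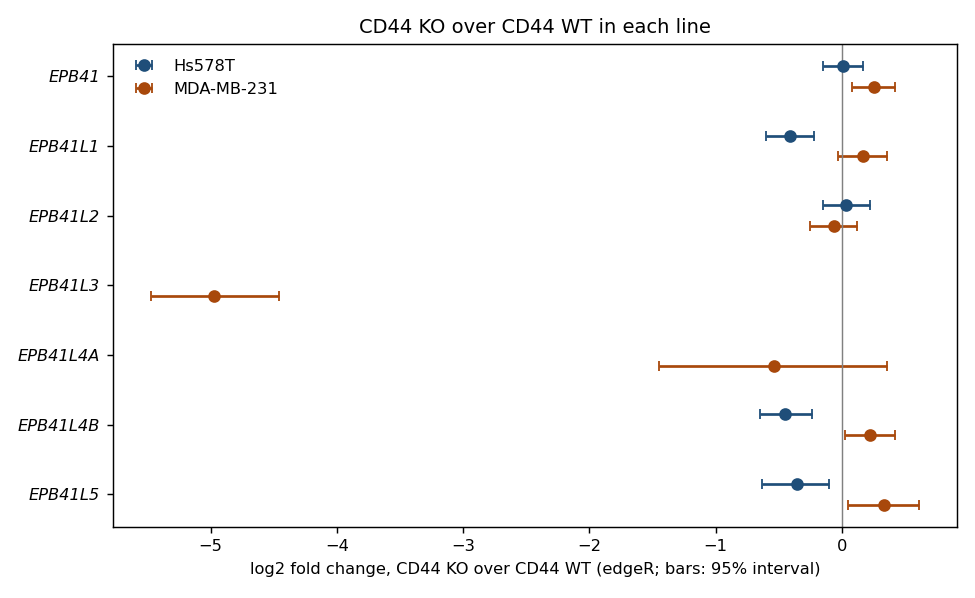
Fitted log2 fold changes (horizontal axis) of CD44 KO over CD44 WT for each member (rows) in Hs578T (blue) and MDA-MB-231 (orange), with 95% intervals as bars. The bars are normal approximations, narrower than edgeR's test implies, so a bar clear of 0 is not a passed test. EPB41L3 stands alone at -4.97 in MDA-MB-231, the other values lie between -0.54 and 0.33, and no fold is drawn for EPB41L3 and EPB41L4A in Hs578T.

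The family was also compared between the unedited lines. The level of EPB41L3 in MDA-MB-231 CD44 WT is part of what chose the family, and EPB41L4A passed the filter on low counts through MDA-MB-231 alone, so both are described without a test here. Of the other 5 members 2 were called between MDA-MB-231 CD44 WT and Hs578T CD44 WT, against 61.5% of all genes tested. A share from 5 genes cannot be told from that background. EPB41 was lower in MDA-MB-231, at 45.5 against 88.4 CPM on average (log2 difference -0.96, standard error 0.0848, adjusted p = 6.98e-08, edgeR). EPB41L5 was lower as well, at 17.3 against 39.0 CPM (log2 difference -1.17, standard error 0.140, adjusted p = 2.00e-06, edgeR). Both calls held in all 12 fits that left out 1 library. EPB41L4A had 71 counts over the 3 MDA-MB-231 libraries against 2 in Hs578T, a ratio of 38.7 (exact 95% counting interval 10.3 to 326). EPB41L1 (log2 difference -0.27, adjusted p = 0.0227) and EPB41L2 (-0.25, adjusted p = 0.0269) did not pass, nor did EPB41L4B (0.08, 95% interval -0.12 to 0.28, adjusted p = 0.470, edgeR). EPB41L2 passed without the unnumbered MDA-MB-231 CD44 WT library (adjusted p = 0.00912).

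The genes nearest to EPB41L3 on chromosome 18 were counted next. Within 1 Mb of its ends, 5 genes passed the filter, and none lay closer than 95 kb. ZBTB14, a zinc finger gene 95 kb away, was at 13 ± 1.39 CPM in MDA-MB-231 CD44 WT and 15.2 ± 2.04 in CD44 KO (SD, n = 3 each). The noncoding genes LINC00667 (15.6 ± 1.82 against 15.6 ± 1.38 CPM) and LINC00526 (1.54 ± 0.214 against 1.85 ± 0.298 CPM) lie 146 and 154 kb away. The ribosomal pseudogene RPL6P27 (128 ± 23.3 against 115 ± 7.51 CPM), 831 kb away, shares sequence with its parent gene. In each of these 4 genes the MDA-MB-231 groups overlapped. DLGAP1, which encodes a synaptic scaffold 937 kb away, had no count in CD44 KO and 0.0567 ± 0.0493 CPM in CD44 WT, too few for a fold. No neighbour with enough counts therefore showed a change of the size seen for EPB41L3.

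Over the 12 libraries, the pattern of EPB41L3 was compared with that of 11226 genes of at least 5 CPM on average, by the root mean square difference of log2 CPM after centring each gene on its own mean. The 5 nearest were CASC19 (difference 0.62), LINC01088 (0.77), PGM5 (1.03), AFAP1-AS1 (1.20) and C4BPB (1.35), where the median gene differed by 3.82. CASC19, LINC01088 and AFAP1-AS1 are noncoding, PGM5 encodes aciculin, a protein of adherens-type junctions, and C4BPB a chain of the complement regulator C4b-binding protein. Like EPB41L3 they were close to 0 in Hs578T. In MDA-MB-231, CASC19 (chromosome 8) went from 47.1 ± 2.11 CPM in CD44 WT to 2.40 ± 0.843 in CD44 KO. PGM5 (chromosome 9) went from 19.0 ± 2.29 to 1.11 ± 0.288 CPM. AFAP1-AS1 (chromosome 4) kept more of its level, from 52.2 ± 3.92 to 13.9 ± 0.827 CPM. These genes were picked for their likeness over libraries that fall into 4 groups, so no test applies, and none of them lies on chromosome 18.

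**Figure D4:**
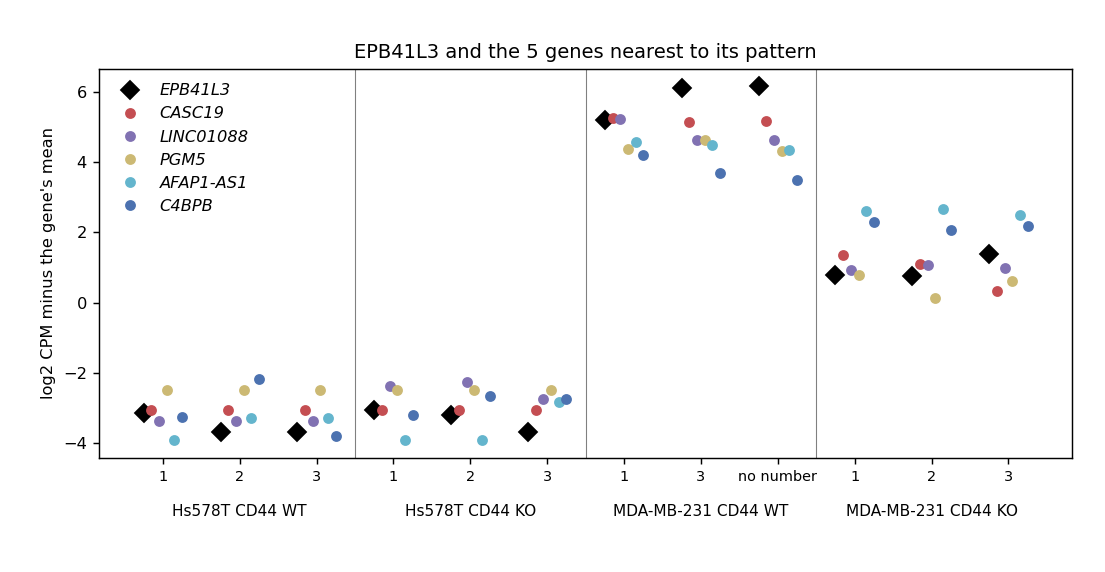
Log2 CPM minus each gene's mean over the 12 libraries (vertical axis) for EPB41L3 (black diamonds) and the 5 genes with the nearest pattern (coloured points), library by library within the 4 groups. All 6 genes are lowest in Hs578T, highest in MDA-MB-231 CD44 WT and in between in MDA-MB-231 CD44 KO.

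Known partners of the 4.1 proteins were counted by a list of 42 genes, 33 of which were tested. This list and those that follow were chosen with earlier results of these data known, so their shares and p-values are no independent support. In MDA-MB-231, 3 of the 33 (9.09%) were called, 2 lower and 1 higher in CD44 KO, where 4.62% of all genes tested were called, and the median of the 33 log2 fold changes was -0.02 against -0.01 over all genes tested. CADM1 (chromosome 11), an immunoglobulin-type adhesion molecule whose tail is known to bind the 4.1B protein encoded by EPB41L3, had 121, 103 and 132 counts in CD44 WT and 10, 10 and 4 in CD44 KO. It fell from 10.2 ± 1.71 to 0.591 ± 0.232 CPM (SD, n = 3 each, log2 fold change -4.08, standard error 0.472, adjusted p = 6.12e-05, edgeR). All 3 CD44 KO libraries were far below CD44 WT, and the call held in each of the 12 fits that left out 1 library. Unlike EPB41L3, CADM1 was well counted in Hs578T, at 37.7, 24.8 and 11.6 CPM in CD44 WT and 14.5, 18.8 and 14.8 CPM in CD44 KO. There the groups overlapped and the test did not pass (log2 fold change -0.63, standard error 0.288, adjusted p = 0.173, edgeR).

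PRMT3 (chr11:20387530-20509294), an arginine methyltransferase that 4.1B is known to bind, fell from 63.0 ± 5.33 to 43.7 ± 5.99 CPM (log2 fold change -0.53, standard error 0.101, adjusted p = 0.00376, edgeR). PRMT3 and CADM1 lie on the chromosome that also carries the edited CD44 gene, and the part of position in their falls was not tested. ITGB8, an integrin beta subunit, rose from 1.56 ± 0.544 to 4.72 ± 0.423 CPM (log2 fold change 1.58, standard error 0.307, adjusted p = 0.00384). The ITGB8 call was lost without MDA-MB-231 CD44 WT replicate 1 or 3 or any CD44 KO library of that line (adjusted p up to 0.0147). The PRMT3 call was lost without replicate 3 of MDA-MB-231 CD44 WT, replicate 2 or 3 of its CD44 KO, or replicate 3 of Hs578T CD44 KO (adjusted p up to 0.0258).

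In Hs578T, 4 of the 32 partners with enough counts for a fold (12.5%) were called, 1 higher and 3 lower in CD44 KO, beside 7.51% of all genes tested. Their median log2 fold change was -0.05, and that of all genes tested 0.00. MPP7, a junctional scaffold of the membrane-associated guanylate kinase family, rose from 0.461 ± 0.258 to 3.67 ± 0.560 CPM (log2 fold change 2.95, standard error 0.338, adjusted p = 2.81e-05, edgeR). CALM2, 1 of the calmodulin genes, whose product regulates 4.1 binding, fell from 657 ± 73.0 to 451 ± 18.5 CPM (log2 fold change -0.54, adjusted p = 4.71e-04). Both calls held in all 12 fits that left out 1 library. The phosphoprotein adaptors SFN (log2 fold change -0.61, adjusted p = 0.00476) and YWHAQ (-0.46, adjusted p = 0.00101) fell too. CALM2 (chr2:47160082-47176601) and YWHAQ (chr2:9583972-9631014) lie on the same chromosome and SFN on chromosome 1, and the part of position was not tested. YWHAQ lost its call without Hs578T CD44 KO replicate 3 (adjusted p = 0.0106). SFN lost it without Hs578T CD44 WT replicate 1 or 2 or any Hs578T CD44 KO library (adjusted p up to 0.0345).

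Of 21 genes of the membrane skeleton, on which the 4.1 proteins act, 18 were tested. In Hs578T CD44 KO 6 of them (33.3%, beside 7.51% of all genes tested) were called, 2 higher and 4 lower, with a median log2 fold change of 0.02 over the 18 and of 0.00 over all genes tested. ANK3 (ankyrin-G) rose from 4.97 ± 2.57 to 20.9 ± 0.976 CPM (log2 fold change 2.1, standard error 0.287, adjusted p = 1.43e-04, edgeR). ANK2 (ankyrin-B) rose from 6.37 ± 4.28 to 18.6 ± 2.89 CPM (log2 fold change 1.52, adjusted p = 0.00594). Ankyrins are adaptors that tie membrane proteins, CD44 among them, to spectrin. DMTN (dematin, an actin bundler) fell from 6.69 ± 2.94 to 1.65 ± 0.320 CPM (log2 fold change -2.02, adjusted p = 2.26e-04), SPTB (beta-spectrin) from 18.4 ± 3.94 to 6.94 ± 1.81 CPM (-1.42, adjusted p = 0.00190), and TMOD1 (tropomodulin, which caps actin filaments) from 9.29 ± 2.05 to 4.25 ± 0.556 CPM (-1.13, adjusted p = 0.00314). The fourth that fell, ANK1 (ankyrin-R), lay outside the rule for named genes and was added after its values were seen. It went from 60.8 ± 0.586 to 39.6 ± 3.55 CPM (log2 fold change -0.62, adjusted p = 0.00939, edgeR).

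Among these, ANK3 and DMTN were called in all 12 fits that left out 1 library. SPTB lost its call without replicate 1 or 2 of Hs578T CD44 WT or replicate 2 of its CD44 KO (highest adjusted p 0.0166). ANK2 lost it without CD44 WT replicate 2 or any CD44 KO library of Hs578T (up to 0.0313), and TMOD1 without CD44 WT replicate 1 or 2 or any CD44 KO library (up to 0.0249). ANK1 lost it without any one of the 6 Hs578T libraries, MDA-MB-231 CD44 WT replicate 3 or MDA-MB-231 CD44 KO replicate 1 (up to 0.0608). In MDA-MB-231 CD44 KO, ANK3 was the 1 called gene of the 18 (5.56%, beside 4.62% of all genes tested) and also rose, from 2.84 ± 0.468 to 9.23 ± 2.06 CPM (log2 fold change 1.68, standard error 0.323, adjusted p = 0.00363, edgeR). That call was lost without replicate 1 or 3 of either group of the line (adjusted p up to 0.0173).

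Of 41 genes with a FERM domain outside the family, 34 were tested. In Hs578T 2 of them (5.88%, beside 7.51% of all genes tested) were called, both higher in CD44 KO, FRMD3 (38.8 ± 6.52 to 66.9 ± 5.22 CPM, log2 fold change 0.78, adjusted p = 0.00488) and the phosphatase gene PTPN13 (57.9 ± 8.38 to 97.6 ± 5.17 CPM, 0.76, adjusted p = 0.00334, edgeR). FRMD3 lost its call without Hs578T CD44 WT replicate 2 or 3 or any CD44 KO library (adjusted p up to 0.0288), and PTPN13 without CD44 WT replicate 1 or 2 or any CD44 KO library (up to 0.0258). In MDA-MB-231 2 of the 33 with enough counts for a fold (6.06%, beside 4.62%) were called. FRMD4A, a scaffold of cell polarity, rose from 46.6 ± 3.96 to 93.5 ± 2.41 CPM (log2 fold change 1.01, standard error 0.0925, adjusted p = 6.59e-06, edgeR), and this held in all 12 fits. FERMT1 (kindlin-1, an integrin activator) fell from 47.0 ± 2.18 to 29.9 ± 5.98 CPM (log2 fold change -0.65, adjusted p = 0.00796), a call kept in 3 of the 12 fits and lost in the other 9, those without MDA-MB-231 CD44 KO replicate 2 or 3, any MDA-MB-231 CD44 WT library, Hs578T CD44 WT replicate 2 or any Hs578T CD44 KO library (adjusted p up to 0.0555). The middle value of this list on the log2 scale was -0.10 in Hs578T, where that of all genes tested was 0.00. For MDA-MB-231 these medians were 0.13 and -0.01.

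**Figure D5:**
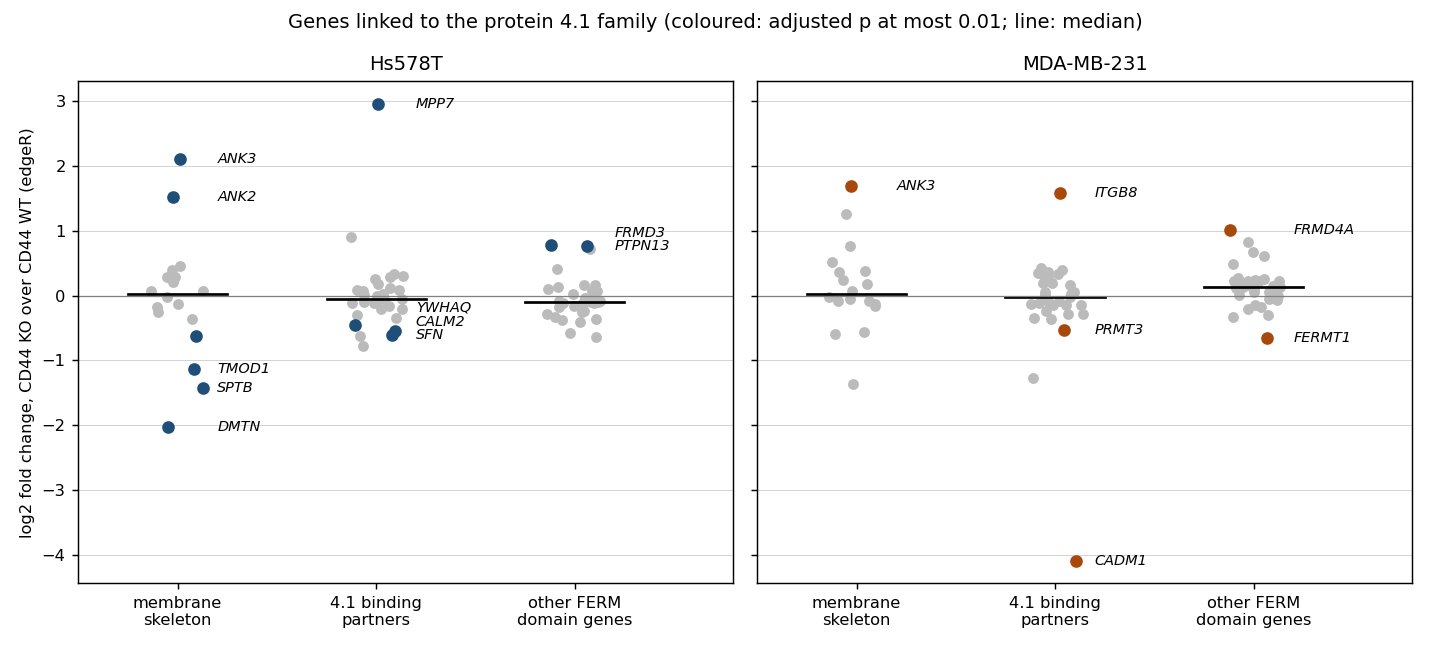
Fitted log2 fold changes of CD44 KO over CD44 WT (vertical axis) in Hs578T (left) and MDA-MB-231 (right) for the tested genes of 3 lists, with the median as a black line and genes at an adjusted p of at most 0.01 in colour, the described ones named. CADM1 at -4.08 in MDA-MB-231 lies far below every other listed gene, and in Hs578T the called membrane skeleton genes lie on both sides of 0.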

How the data were processed

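RNA-seq of 12 libraries was analysed, 3 in each of 4 groups. The authors aligned reads to GRCh38 with HISAT2 2.1.0, counted read pairs per gene by strand with featureCounts 1.6.2 on GENCODE 28, and deposited whole-number counts without normalization for 58381 genes, with exonic lengths. Fragments aligning to several places were not counted. Tested were 15836 genes, those not shorter than 300 nt in exonic length (the methods print "less than") that exceeded 1 CPM in 2 libraries or more, with edgeR 4.0.16 (R 4.3.3, TMM factors, quasi-likelihood test, 4 group means), called up to a Benjamini-Hochberg adjusted p of 0.01. Log2 CPM used a prior count of 2. The fit was tested on simulated data. Totals from 10257586 to 19725543 counts per library limit precision for weak genes.

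The members and lists were chosen with earlier results of these data known. Named were all 7 members, up to 5 called genes per list and line with the largest fold change, the 5 genes nearest to EPB41L3 in pattern, and tested genes within 1 Mb of it. Alternatives were RLE factors, library size only, DESeq2 1.42.0, no filter, 10 counts in every library of a group, each line alone, an adjusted p of 0.05, replicate blocks, and each library left out. Group totals of at most 3 counts gave no fold. One gene of the blood marker list is not reported here.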

Additional observations from a re-analysis of the deposited data

Results flagged for a closer look

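For the members EPB41L1, EPB41L4B and EPB41L5 and the partner CALM2, the CPM of every CD44 KO library lay below that of every CD44 WT library in Hs578T and above it in MDA-MB-231. Of the members, EPB41L4B alone passed the test in Hs578T. CALM2 was called there, but in MDA-MB-231 it went only from 805 ± 21.6 CPM in CD44 WT to 837 ± 9.86 in CD44 KO. That change was not called (log2 fold change 0.06, adjusted p = 0.756, edgeR). The log2 fold change in Hs578T minus that in MDA-MB-231 was -0.58 for EPB41L1, -0.67 for EPB41L4B, -0.69 for EPB41L5 and -0.60 for the calmodulin gene CALM2, and this difference was not tested. Of all genes tested, 2.30% had the same pattern. Without MDA-MB-231 CD44 WT replicate 1, the log2 fold changes of EPB41L4B and EPB41L5 in that line were smaller, at 0.15 and 0.19. That of EPB41L1 was 0.18.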

How the results depend on the processing

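The EPB41L3 log2 fold change in MDA-MB-231 stayed between -5.22 and -4.80 when 1 library was left out and moved by less than the spread between replicates in every other alternative run. The count of members called in Hs578T, 1 as reported, was 2 with library size only, DESeq2 or an adjusted p of 0.05, 0 with no filter on low counts, and 0 to 2 when 1 library was left out. Members called between the lines, 2 as reported without EPB41L3 and EPB41L4A, numbered 4 with library size only or an adjusted p of 0.05 and 2 to 3 when 1 library was left out. The list genes called were 12 in Hs578T, 5 to 15 when 1 library was left out. In MDA-MB-231 they were 6, with 10 under no filter on low counts or DESeq2, 12 at an adjusted p of 0.05, and 2 to 7 when 1 library was left out. Libraries with the same replicate number had correlations of their deviations from -0.096 to 0.164, not all above 0.1. With the replicate number as a block within each line, 0 members were called in Hs578T and 2 list genes in MDA-MB-231. That fit left out the unnumbered library, so replicate 2 of MDA-MB-231 CD44 KO had no CD44 WT library in its block. Its counts therefore rest on fewer libraries than the main fit. The library names also carry running numbers from 1 to 12, in 3 sets with 1 library of each group. A block by these sets within each line, with all 12 libraries, was added after seeing the data. In MDA-MB-231 the sets paired replicates 1 and 3 of the groups as the replicate numbers did. Libraries of a set had correlations from 0.008 to 0.164. With the block by sets, 1 member and 12 list genes were called in Hs578T and 6 list genes in MDA-MB-231. SFN in Hs578T (adjusted p = 0.0104, edgeR) and PRMT3 in MDA-MB-231 (0.0132) lost their calls. Between the lines 2 members were called, but with a block that comparison stands at the first set and not between group means. In Hs578T 6 of 6 libraries correlated best with their own set and 0 of 6 with their own replicate number, and in MDA-MB-231 4 of 6 with their own set, a hint from the data and not from the design. No single gene changed direction on a called value in any alternative. The cause of these moves was not tested.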

Other observations

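EPB41L4A has an antisense neighbour, EPB41L4A-AS1, which was counted by strand and lies inside the EPB41L4A span on the plus strand (chr5:112160526-112164276, GRCh38). It was at 13.1 to 17.1 CPM in Hs578T CD44 WT and 16 to 18.3 CPM in CD44 KO, where EPB41L4A itself had at most 2 counts a library. In MDA-MB-231 it was at 20.1 to 26.9 CPM in CD44 WT and 18.7 to 22.5 CPM in CD44 KO. EPB41L1-AS1 had no count in any library, and EPB41L4A-DT had at most 2.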
